A study of Mus musculus with 2 samples.

Results

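The results below concern 39 genes for heat shock proteins, their co-chaperones and heat shock transcription factors, chosen by symbol among the 27998 genes of the count tables, in immune cells sorted from subcutaneous tumours of mice. All 39 symbols were found in both tables. Of these, 4 (Hspa1a, Hspa1b, Dnajb1 and Hsph1) were taken as inducible members and the other 35 were set beside them in 8 role groups. The study asked what loss of CD94, the chain encoded by Klrd1 that joins NKG2 family members in receptors of NK cells and certain T cells, does to immunity against tumours. A wild-type (WT) library from C57BL/6J mice was compared with a library from CD94-KO mice of the same strain, all 6 to 8 weeks old and bearing a subcutaneous tumour, each library pooling cells of 5 mice. Live CD45+ cells were sorted with 7AAD as the dead-cell dye, and neither the tumour line nor the deleted part of Klrd1 is given in the sources used here. Both genotypes carried a tumour, and no library of mice without a tumour was analysed here. Klrd1 stood at 622 CPM (UMI counts scaled to the class total) in NK-like cells of the WT library and at 307 CPM in those of the CD94-KO library, and a 3′ tag outside a deleted part would not check the genotype.

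Heat shock proteins are molecular chaperones that bind unfolded or partly folded proteins and help them fold, assemble or be degraded. HSP70 proteins bind and release clients with ATP, J proteins deliver the clients, nucleotide exchange factors reset the cycle, and HSP90 finishes the folding of kinases and receptors. Heat and toxins release heat shock factor 1 (Hsf1) from chaperones, and the factor then binds inverted repeats of a short unit, the heat shock elements, and raises the inducible members from low levels, while constitutive members such as Hspa8 are transcribed in unstressed cells. Dendritic cells, macrophages and lymphocytes rely on the members of the endoplasmic reticulum to fold their secreted and surface proteins.

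The promoter windows of the inducible pair and the heat shock elements of other members are shown first, because Hspa1a and Hspa1b had the largest ratios in mregDC-like cells and have nearly the same promoter. The windows come from RefSeq (GRCm38.p6) and run from 250 bases before to 50 after the annotated start, and 31 of the 39 members had one. The 250 bases before the start are printed for Hspa1a (chr17:34972157-34972406, minus strand) and Hspa1b (chr17:34959239-34959488, minus strand), with a pair of facing units of 8 bases, GAANNTTC, in capitals.
Hspa1a: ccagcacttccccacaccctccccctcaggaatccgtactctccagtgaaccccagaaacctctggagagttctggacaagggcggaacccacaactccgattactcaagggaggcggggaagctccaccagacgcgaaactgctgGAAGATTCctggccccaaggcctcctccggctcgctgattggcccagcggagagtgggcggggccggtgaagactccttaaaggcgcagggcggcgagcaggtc
Hspa1b: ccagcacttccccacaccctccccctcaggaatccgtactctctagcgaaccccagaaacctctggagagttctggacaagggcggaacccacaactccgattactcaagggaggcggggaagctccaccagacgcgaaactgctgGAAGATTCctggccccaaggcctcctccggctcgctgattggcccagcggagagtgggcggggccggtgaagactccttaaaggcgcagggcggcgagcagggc
Of the 300 bases of the 2 windows, 296 were identical. The 3 differences before the start were C44T, T47C and T249G, with the Hspa1a base first, the position counted from 1 at the 5′ end of the printed sequence, and the Hspa1b base last. The capital pair began 104 bases before the start in both genes.

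A longer element of 3 alternating units, GAANNTTCNNGAA or its reverse complement TTCNNGAANNTTC, was found in the windows of 5 of the 31 members. It was present in 198 of all 32851 windows of the same length (0.603%). Here and for the shorter pair below, a member counts with a match in any of its windows, 41 for the 31 members. The shares of all windows count single windows, so the members' shares are not on the same unit. The elements are printed in capitals, with overlapping matches joined.
Hsph1: TTCTGGAAAGTTC
Chordc1: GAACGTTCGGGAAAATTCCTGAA
Dnajb6: GAATCTTCCGGAA
Hspe1: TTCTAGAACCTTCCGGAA
Hspd1: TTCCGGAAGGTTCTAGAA
The Hsph1 element (chr5:149636288-149636300, minus strand) lay 37 to 49 bases after the first of its listed starts, and that of Dnajb6 (chr5:29735852-29735864, plus strand) 46 to 34 bases before its first listed start. The Chordc1 element (chr9:18292263-18292285, plus strand) spanned its start. Hspe1 and Hspd1 encode the mitochondrial chaperonin HSP10 and HSP60 and are read in opposite directions. They share the same 18 bases (chr1:55088059-55088076), printed once on each strand and counted for both members. The shorter pair of units, GAANNTTC or TTCNNGAA, overlaps the longer element, was chosen after the values were seen, and was found in 14 of the 31 members (45.2%) and in 15.1% of all windows. Dnajb1 held neither motif in any of its windows, which says only that these letters are not there. A match is a description of letters and not evidence that a factor binds.

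Hspa1a and Hspa1b are near copies, so whether a tag can be assigned to one of them was checked. Of the windows of 91 bases in the last 500 bases of the annotated transcripts, 0 of 410 were shared, while 1412 windows of the whole transcripts were shared (49.1% of those of Hspa1a and 52.0% of those of Hspa1b). Tags from the last 500 bases can thus be assigned to 1 of the 2 genes, and how the authors' counting treated others is not given.

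The WT library kept 4388 cells with 36482364 unique molecular identifiers (UMIs, counts of distinct RNA molecules) and the CD94-KO library kept 4574 cells with 42210515. Median depth was 4768.5 and 7799 UMIs per cell, and 29.9% and 7.08% of cells had under 1000 UMIs. Cells were gated by the summed UMIs of marker lists, and the classes are named after those markers. The 5 classes with at least 100 cells in each library were compared: 320 and 457 NK-like cells (WT and CD94-KO), 329 and 274 T-like cells, 1006 and 1700 monocyte-like cells, 641 and 770 macrophage-like cells, and 116 and 162 cells like mature regulatory dendritic cells (mregDC-like, the migratory dendritic state marked by Fscn1, Ccl22 and Il4i1). Ccr7, which was not in the gate, stood at 3363 and 3625 CPM in mregDC-like cells and at no more than 114 CPM in the other 4 classes. A further 33.9% of WT and 14.9% of CD94-KO cells passed no gate, with median depths of 751 and 1265.5 UMIs, and 8 barcodes were shared between the libraries. With 1 library per genotype no difference could be tested. Brackets give exact 95% intervals that cover counting error only, and they are too narrow where few cells hold most UMIs. A member is called higher or lower at a ratio of at least 1.5-fold, among genes with at least 20 UMIs over both libraries. CPM are scaled to all UMIs of the class in that library, and 3′ tags are not scaled by gene length.

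The inducible members differed most in mregDC-like cells, where all 4 were higher in the CD94-KO library. Their summed level was 219.8 CPM in the WT and 1262 CPM in the CD94-KO library, a ratio of 5.74 [4.98 to 6.65]. The same sum was 336 and 550.2 CPM in macrophage-like cells (ratio 1.64 [1.56 to 1.72]) and 583 and 773 CPM in NK-like cells (ratio 1.33 [1.25 to 1.41]). It was 394 and 398 CPM in monocyte-like cells, with an interval of the ratio that includes 1 (1.01 [0.970 to 1.05]), and 383 and 321 CPM in T-like cells (ratio 0.836 [0.753 to 0.928]). The T-like ratio turned to 1.18 when no doublets were removed, so its direction rests on that step. The T-like class also held its subsets in unlike numbers. Cells gated as IL-17 gamma-delta T cells numbered 52 in the WT and 99 in the CD94-KO library, and regulatory T cells 62 and 29. The part of this mix in the ratio was not tested. Across classes the mregDC-like cells had the lowest sum of the 5 classes in the WT library and the highest in the CD94-KO library.

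**Figure D1:**
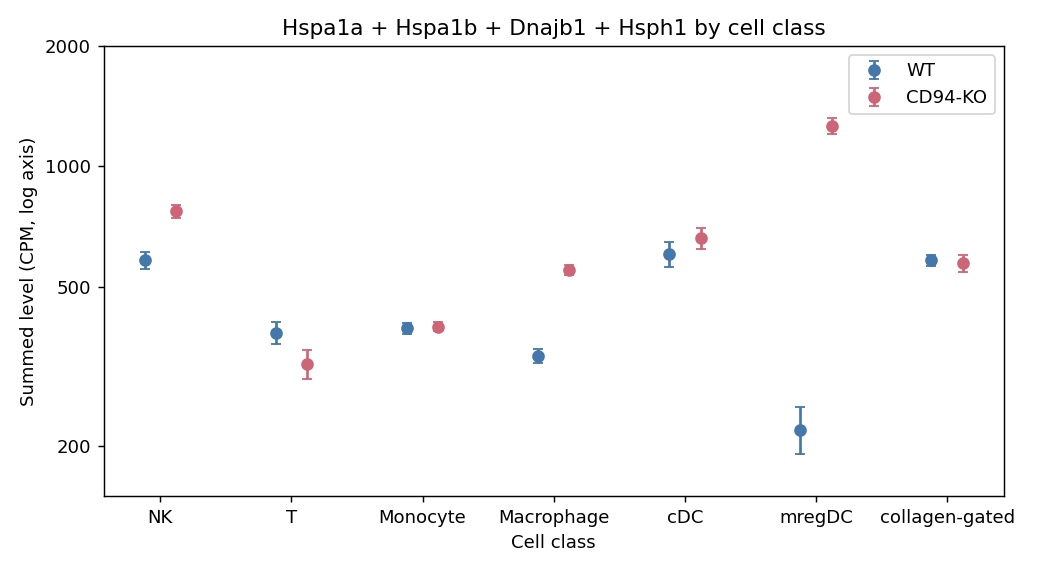
Summed level of Hspa1a, Hspa1b, Dnajb1 and Hsph1 in CPM on a log axis for 7 gated cell classes, WT in blue and CD94-KO in red, with exact 95% Poisson intervals. The mregDC points lie farthest apart, at 219.8 and 1262 CPM, and the monocyte points overlap.

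In mregDC-like cells Hspa1a, which encodes an inducible cytosolic HSP70, stood at 64.4 CPM in the WT and 525 CPM in the CD94-KO library (ratio 8.15 [6.29 to 10.7]). Hspa1b, its neighbouring near copy, stood at 85.9 and 592 CPM (ratio 6.90 [5.51 to 8.74]). The intervals of the 2 libraries did not overlap for either gene, and the CD94-KO level was the higher in both. Dnajb1, the J protein that stimulates HSP70 and delivers clients to it, stood at 44.98 and 101 CPM (ratio 2.23 [1.58 to 3.21]). Hsph1, an HSP110 protein that acts as nucleotide exchange factor of HSP70, stood at 24.5 and 44.9 CPM (ratio 1.83 [1.13 to 3.06]). In these 2 libraries the pair of HSP70 genes differed by more than their partners. The intervals of the ratio do not overlap, but they cover counting error only and are too narrow where few cells hold most UMIs. When each cell was weighed the same, the summed ratio was 3.41, and without the cells that held a UMI of a T marker it was 5.41, from 93 WT and 147 CD94-KO cells.

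Of the 36 members measured in mregDC-like cells, 8 were at least 1.5-fold higher and 1 was lower in the CD94-KO library, where 9.76% of 6611 genes were higher and 9.77% lower. The other 4 that were higher were Hsp90aa1, Chordc1, Dnajb9 and Hsf2. Hsp90aa1, the stress-inducible cytosolic HSP90, stood at 502 and 831 CPM (ratio 1.66 [1.49 to 1.84]), whereas its constitutive partner Hsp90ab1 stood at 1977 and 2331 CPM (ratio 1.18 [1.11 to 1.25]). Chordc1, an HSP90 co-chaperone with the longest element printed above, stood at 25.6 and 49.9 CPM (ratio 1.95 [1.22 to 3.22]). Dnajb9, a J protein of the endoplasmic reticulum, stood at 23.5 and 41.3 CPM. The member that was lower was Fkbp4, an HSP90 co-chaperone of steroid receptors, at 31.7 and 17.8 CPM (ratio 0.562 [0.318 to 0.984]). With at least 100 UMIs required, 5 members were past 1.5-fold in either direction.

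Immediate early genes, which respond within minutes to stimuli and to cell handling, also differed in mregDC-like cells. Of 16 such genes, 7 were at least 1.5-fold higher in the CD94-KO library (Fos, Fosb, Jun, Atf3, Btg2, Nr4a1 and Klf4) and 0 lower, and their summed level was 6546 CPM in WT and 8362 CPM in CD94-KO cells. Median depth was 8571 and 8574 UMIs, and the median mitochondrial share was 1.34% and 1.001%. The 6 T markers summed to 54.2 CPM in WT and 17.1 CPM in CD94-KO mregDC-like cells, with none at 0 in either library. The part of the immediate early genes in the difference was not tested.

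The higher level in mregDC-like cells came with more cells that held at least 5 UMIs of the HSP70 pair. A UMI of Hspa1a or Hspa1b was found in 31.0% of WT cells (36 of 116, exact interval 22.8 to 40.3%) and in 42.6% of CD94-KO cells (69 of 162, 34.9 to 50.6%). At least 5 such UMIs were found in 7.76% (3.61 to 14.2%) and 22.8% (16.6 to 30.1%), intervals that do not overlap. After thinning each cell to 1000 UMIs, which left out 1 cell in each library, the shares with any such UMI were 13.9% (8.17 to 21.6%) and 26.7% (20.1 to 34.2%), and these intervals overlap. The highest count of inducible UMIs in 1 cell was 21 in the WT and 204 in the CD94-KO library, and 22 CD94-KO cells but 1 WT cell reached 20.

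**Figure D2:**
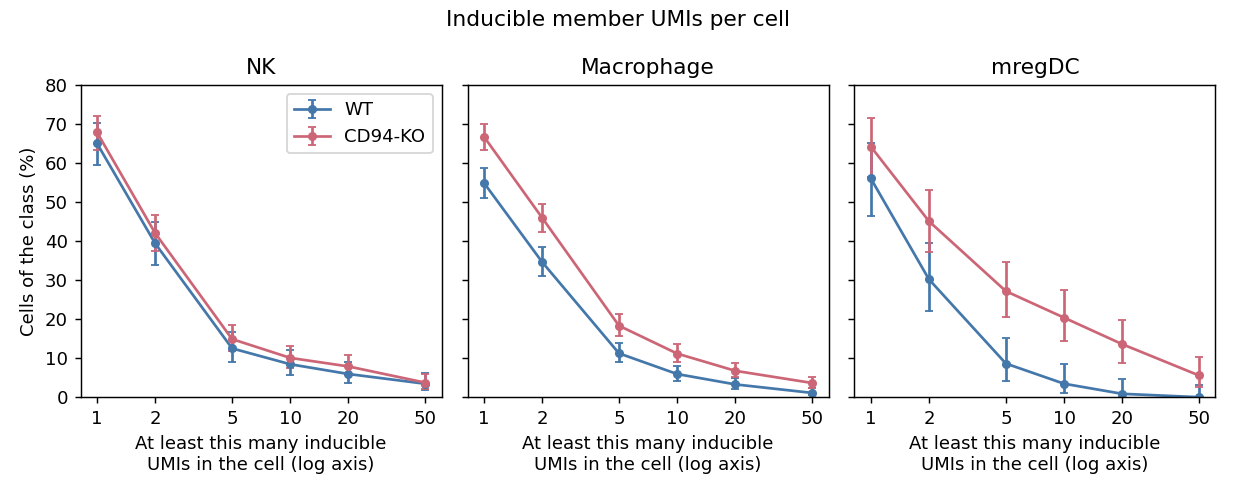
Share of cells (%) that held at least 1, 2, 5, 10, 20 or 50 UMIs of the 4 inducible members (log axis), in NK, macrophage and mregDC classes, with exact 95% binomial intervals. At 20 UMIs the mregDC curves stand at 0.862% in the WT and 13.6% in the CD94-KO library.

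Free RNA can give a droplet UMIs of genes its cell does not express, and no class known to lack the HSP70 pair was at hand to measure its share. Hspa1a stood at 1.85 and 9.85 CPM in collagen-gated cells (median depths of 46841 and 41878 UMIs, above those of the immune classes), where 7.91% of WT and 17.5% of CD94-KO cells held a UMI of it. In mregDC-like cells the same shares were 18.97% and 33.3%, while CD94-KO NK-like cells, at 17.3%, and CD94-KO T-like cells, at 15.7%, were not above CD94-KO collagen-gated cells. Those NK-like and T-like cells had lower median depths, of 6035 and 5543.5 UMIs. Their Hspa1a level was the higher, with 731 UMIs in 3517508 and 108 in 1805904, against 27 in 2740334 in CD94-KO collagen-gated cells. Shares with any UMI of the pair therefore include an unknown part of free RNA. Serpinh1, a collagen chaperone of the endoplasmic reticulum, had a UMI in 96.4% and 90.5% of collagen-gated cells, at 546 and 561 CPM, against 1.56% and 1.09% of NK-like cells.

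In macrophage-like cells 2 of the 4 inducible members were higher in the CD94-KO library. Hspa1a stood at 109 and 229 CPM (ratio 2.09 [1.92 to 2.27]), and Hspa1b at 111 and 205 CPM (ratio 1.84 [1.69 to 1.999]). Dnajb1 stood at 59.04 and 67.8 CPM (ratio 1.15 [1.01 to 1.30]). Hsph1 did not share the direction, at 55.9 and 48.97 CPM with an interval that includes 1 (ratio 0.876 [0.763 to 1.01]). The ratios of the J protein and exchange factor lay below those of the HSP70 pair, with intervals that do not overlap. These intervals cover counting error only and are too narrow, as 18.3% of CD94-KO cells held 85.6% of the inducible UMIs. When each cell was weighed the same, the summed ratio fell under the 1.5-fold limit, to 1.47. At least 5 UMIs of the pair were found in 6.24% of WT and 12.5% of CD94-KO cells, at median depths of 7165 and 10129 UMIs. Thinned to 1000 UMIs, which left out 137 WT and 28 CD94-KO cells, the shares with any UMI of the pair were 9.92% (7.45 to 12.9%) and 14.3% (11.8 to 17.01%), and these intervals overlap. The summed immediate early genes stood at 10083 and 11201 CPM, and the T markers at 167 and 82.1 CPM, and their part in the result was not tested.

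Of the 39 members measured in macrophage-like cells, 3 were at least 1.5-fold higher and 0 lower, against 3.97% and 7.79% of 10632 genes. The third was Hspb1, a small heat shock protein that holds unfolded clients without ATP, at 2.97 and 20.1 CPM (ratio 6.74 [4.28 to 11.2]). Only 7 WT and 10 CD94-KO macrophage-like cells held an Hspb1 UMI, so this value rests on those few cells. In monocyte-like cells, 0 of 38 measured members passed 1.5-fold in either direction, against 3.85% of 11001 genes higher and 6.72% lower. There Hspa1a stood at 151 and 157 CPM (ratio 1.04 [0.972 to 1.11]) and Hspa1b at 143 and 148 CPM (ratio 1.04 [0.970 to 1.11]). Dnajb1 stood at 63.4 and 56.7 CPM and Hsph1 at 36.7 and 36.6 CPM. The Hspa1a ratios of macrophage-like and monocyte-like cells had intervals that did not overlap, although the 2 classes come from the same pair of libraries and were split by complement C1q against monocyte genes.

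In NK-like cells the inducible members were higher by less than in mregDC-like cells, and 1 of the 4 passed 1.5-fold. Hspa1b stood at 211 and 322 CPM (ratio 1.53 [1.38 to 1.69]), and Hspa1a at 164 and 208 CPM (ratio 1.27 [1.13 to 1.43]). Hsph1 stood at 64.1 and 90.7 CPM (ratio 1.41 [1.18 to 1.70]), and Dnajb1 at 144 and 153 CPM with an interval that includes 1 (ratio 1.06 [0.931 to 1.21]). TMM scaling, a way to set library sizes that allows for genes that differ, shifted the NK-like ratios down by 0.13 on the log2 scale and by no more than 0.04 in the other classes, and it turned the direction of Dnajb1 in NK-like cells. With it Hspa1b had a ratio of 1.40 there, so that none of the 4 inducible members was past 1.5-fold. In NK-like cells the median of all 9222 genes measured was itself 0.10 on the log2 scale, beside 0.40 for the 4 inducible members and 0.07 for the 34 of the others that were measured. The summed ratio was 1.13 under a stricter gate and 1.81 without the 10 cells in each library with most inducible UMIs, which held 53.1% of these UMIs in the WT and 35.3% in the CD94-KO library. A UMI of Hspa1a or Hspa1b was found in 20.9% of WT (16.6 to 25.8%) and 27.6% of CD94-KO NK-like cells (23.5 to 31.9%). Thinned to 1000 UMIs, with 1 WT cell left out, the shares were 9.40% (6.44 to 13.2%) and 14.0% (10.95 to 17.5%), and both pairs of intervals overlap.

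Of 38 members measured in NK-like cells, 5 were at least 1.5-fold higher and 0 lower, against 11.9% of genes higher and 3.61% lower, so the share higher was near that of all genes. They were Hspa1b, Hspa4, Hspb1, Bag3 and Hsf2, and the count was 2 under the stricter gate and 2 with at least 100 UMIs required. With TMM scaling 3 were higher (Hspb1, Bag3 and Hsf2) and 1 was lower (Fkbp4, ratio 0.647), while Hspa1b and Hspa4 (1.38) were no longer past 1.5-fold. Hspa4, an HSP110 protein, stood at 91.7 and 138 CPM (ratio 1.51 [1.30 to 1.76]). Bag3, an exchange factor that links HSP70 to autophagy, stood at 9.06 and 16.8 CPM (ratio 1.85 [1.15 to 3.06]). Hspb1 stood at 2.79 and 17.1 CPM, from 3 WT and 11 CD94-KO cells with a UMI. In T-like cells all 4 inducible members had CD94-KO levels below the WT ones, with none past 1.5-fold. Of all genes measured there, 4769 of 8839 had the higher CD94-KO level. Hspa1a stood at 85.2 and 59.8 CPM (ratio 0.702 [0.552 to 0.888]) and Dnajb1 at 110.4 and 84.2 CPM (ratio 0.762 [0.621 to 0.932]). Hspa1b stood at 128 and 120.2 CPM and Hsph1 at 59.6 and 56.5 CPM, with intervals of the ratio that include 1. The shares of T-like cells with a UMI of the pair were 20.7% (16.4 to 25.5%) and 24.5% (19.5 to 29.98%), which does not follow the lower CPM. Thinned to 1000 UMIs they were 8.70% and 7.33%, and with at least 5 UMIs of the pair 6.08% and 4.74%, both lower in the CD94-KO library. The direction depends on the measure, so the shares give no order. Of 37 members measured in T-like cells, 1 was higher (Bag3, with 18 WT and 20 CD94-KO UMIs) and 0 lower, against 9.2% and 8.21% of 8839 genes, and the count was 0 with at least 100 UMIs, 2 with at least 1 UMI and 2 under the stricter gate.

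**Figure D3:**
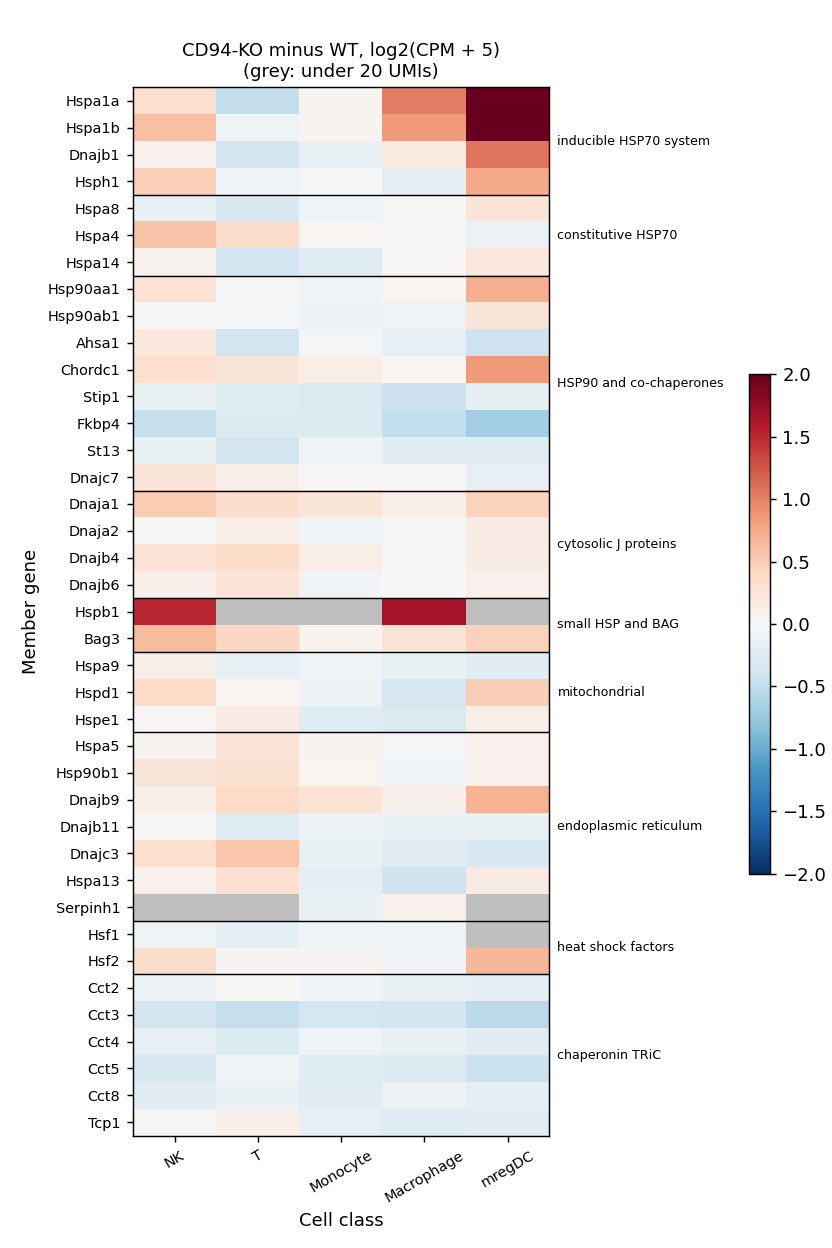
For the 39 members, the log2(CPM + 5) value in the CD94-KO library less that in the WT library (rows, by role group) in 5 cell classes (columns), with colour from -2 (blue) to 2 (red) and grey where both libraries together held under 20 UMIs. The inducible genes are red in the mregDC column, and the rows of the chaperonin TRiC are mostly pale blue.

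The medians of the 35 other members lay near 0 and cover members of both directions. The median log2 difference was 0.07 in NK-like, 0.04 in T-like, -0.07 in monocyte-like, -0.07 in macrophage-like and 0.08 in mregDC-like cells, beside 0.10, 0.03, -0.01, -0.02 and 0.01 for all genes measured. With TMM scaling the median of the other members in NK-like cells was -0.06. The medians of the 4 inducible members were 0.40, -0.23, 0.02, 0.52 and 1.90 in the same order, the one in monocyte-like cells being closer to 0 than that of the other members. The pair of Hspb1 and Bag3 had medians of 1.07 in NK-like and 0.96 in macrophage-like cells, above the inducible ones there. The median of this pair is its mean, and the Hspb1 values rest on the few cells given above. Bag3 alone had ratios of 1.85 in NK-like and 1.23 in macrophage-like cells. Hspa8, the constitutive HSP70 of the cytosol, stood at 1502 and 1362 CPM in NK-like and 1419 and 1147 CPM in T-like cells. It stood at 1575 and 1493 CPM in monocyte-like, 1534 and 1553 CPM in macrophage-like and 1739 and 2055 CPM in mregDC-like cells. Its ratios ranged from 0.808 in T-like to 1.18 in mregDC-like cells, so the constitutive gene stayed within 1.5-fold where its inducible relatives did not. Hspa14, a ribosome-associated HSP70, ranged over the 5 classes from 29.6 CPM in mregDC-like to 73.1 CPM in NK-like cells.

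Among HSP90 genes and co-chaperones, Hsp90ab1 ranged from 1445 CPM in monocyte-like cells of the CD94-KO library to 2331 CPM in mregDC-like cells of that library. Its ratios lay between 0.933 and 1.18. Hsp90aa1 outside mregDC-like cells had ratios from 0.941 to 1.23, all under 1.5-fold. Fkbp4 had CD94-KO levels below WT ones in each of the 5 classes, with ratios of 0.707 in NK-like, 0.820 in T-like, 0.808 in monocyte-like, 0.685 in macrophage-like and 0.562 in mregDC-like cells. Stip1, which bridges HSP70 and HSP90, had ratios over the 5 classes from 0.728 to 0.907. Ahsa1, which stimulates the ATPase of HSP90, had ratios from 0.731 in mregDC-like to 1.17 in NK-like cells. St13, which binds HSP70, ranged from 0.767 in T-like to 0.956 in monocyte-like cells, and Dnajc7, a J protein that also binds HSP90, from 0.887 in mregDC-like to 1.22 in NK-like cells. These comparisons all rest on the same 2 libraries and are not independent of each other.

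Of the cytosolic J proteins, Dnaja1, which pairs with HSP70, had the higher CD94-KO level in each of the 5 classes, with ratios of 1.42 in NK-like, 1.28 in T-like, 1.19 in monocyte-like, 1.09 in macrophage-like and 1.37 in mregDC-like cells, none past 1.5-fold. Dnajb6, a J protein that keeps aggregation-prone proteins apart, ranged from 197 CPM in macrophage-like to 379 CPM in T-like cells of the CD94-KO library. Dnaja2, a relative of Dnaja1, had ratios from 0.959 in monocyte-like to 1.12 in mregDC-like cells. Dnajb4, a J protein of the Dnajb1 type, stood at 56.1 and 69.4 CPM in NK-like cells, above the 17.7 and 24.4 CPM of T-like cells. Bag3 was higher in monocyte-like than in NK-like cells, at 35.99 and 38.2 CPM against 9.06 and 16.8 CPM. Hspb1 had 0 UMIs in mregDC-like cells of both libraries, which allows up to 3 UMIs in each.

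The mitochondrial members, which fold proteins imported into the matrix, had CD94-KO levels below WT ones in monocyte-like cells (3 of 3, ratios 0.840 to 0.944) and macrophage-like cells (3 of 3, ratios 0.787 to 0.902). In NK-like cells 3 of 3 lay above, at ratios 1.01 to 1.33, but with TMM scaling Hspe1 and Hspa9 lay below. Of all genes measured, 5990 of 9222 had the higher CD94-KO level in NK-like cells. The counts were 5122 of 11001 in monocyte-like and 4950 of 10632 in macrophage-like cells. Hspd1 stood at 193 and 257 CPM in NK-like and 162 and 127 CPM in macrophage-like cells, so the 2 classes had opposite directions for it, and that difference was not tested. Hspe1, which shares the printed element with Hspd1, stood at 528 and 534 CPM in NK-like and 352 and 288 CPM in macrophage-like cells. Hspa9, the mitochondrial HSP70, ranged from 30.7 CPM in mregDC-like to 127 CPM in macrophage-like cells.

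The endoplasmic reticulum members fold secreted and membrane proteins. Hspa5, the HSP70 of this compartment, stood at 388 and 412 CPM in mregDC-like cells, against 775 and 805 CPM in NK-like, 721 and 866 CPM in T-like and 1235 and 1216 CPM in macrophage-like cells. Hsp90b1, the HSP90 of the same compartment, stood at 169.7 and 179.6 CPM in mregDC-like and 819.9 and 782 CPM in macrophage-like cells. Both were lowest in mregDC-like cells in either library among 6 immune classes, and the level there lay below every other class by at least 1.75 and 2.40 times. Between genotypes their ratios over the 5 compared classes stayed between 0.953 and 1.24. Among the J proteins of the compartment, Dnajb11 had ratios from 0.829 in T-like to 0.998 in NK-like cells, and Dnajc3, which also inhibits a kinase of the stress response, from 0.789 in mregDC-like to 1.49 in T-like cells. Hspa13, an HSP70 of the microsomes, ranged from 0.725 in macrophage-like to 1.33 in T-like cells. In all, 16 of the 39 members were lowest in mregDC-like cells in both libraries. The classes ranked were NK-like, T-like, monocyte-like, macrophage-like, conventional dendritic (cDC-like) and mregDC-like cells. This count was not made over all genes, so it is not known to be particular to these members.

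The 2 heat shock factors differed from each other across classes. Hsf2, a factor that binds the same elements as Hsf1, stood at 61.3 and 99.8 CPM in mregDC-like cells (ratio 1.63 [1.19 to 2.24]). In the other 5 immune classes it ranged from 3.14 CPM in NK-like to 8.64 CPM in macrophage-like cells, so the lower mregDC-like level was 7.10 times the highest of theirs. The 9 WT and 19 CD94-KO UMIs of NK-like cells gave a ratio of 1.72 [0.742 to 4.32], which includes 1. Hsf1, the main factor of the heat shock response, ranged from 6.42 to 14.2 CPM over the same classes and had too few UMIs in mregDC-like cells for a comparison. A transcript level says nothing of the activity of either factor.

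The chaperonin TRiC, which folds actin and tubulin, had CD94-KO levels mostly below WT ones. Of its 6 members measured, 6 were below in monocyte-like, 6 in macrophage-like and 6 in mregDC-like cells. In NK-like and T-like cells 5 and 4 were below (6 and 5 with TMM scaling), and no member in any class was past 1.5-fold. Of all genes measured, the CD94-KO level was the higher for 5122 of 11001 in monocyte-like and 4950 of 10632 in macrophage-like cells. It was the higher for 3412 of 6611 in mregDC-like, 5990 of 9222 in NK-like and 4769 of 8839 in T-like cells. The median log2 difference of TRiC was -0.19, -0.10, -0.20, -0.20 and -0.22 in NK-like, T-like, monocyte-like, macrophage-like and mregDC-like cells, and between -0.32 and -0.14 with TMM scaling. Cct2, Cct4, Cct5, Cct8 and Tcp1 had ratios from 0.735 (Cct5 in mregDC-like cells) to 1.07 (Tcp1 in T-like cells). Cct3, chosen after its values were seen, stood at 135 and 102 CPM in NK-like (ratio 0.758 [0.655 to 0.878]) and 123 and 94.8 CPM in macrophage-like cells (ratio 0.768 [0.698 to 0.845]). In mregDC-like cells, where the inducible genes were higher, Cct3 stood at 78.7 and 53.5 CPM (ratio 0.679 [0.488 to 0.946]).

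A list of 56 further chaperone and stress genes was set beside the members. In mregDC-like cells 4 of 46 measured were at least 1.5-fold higher and 6 lower, beside 9.76% and 9.77% of all genes. Atf4, a factor of the integrated stress response, stood at 184 and 277 CPM, while Xbp1, a factor of the unfolded protein response, stood at 90.98 and 60.6 CPM and Dnajc21 at 65.4 and 43.5 CPM. The other classes gave 1 higher and 1 lower of 50 in NK-like cells, 0 and 3 of 50 in T-like, 0 and 2 of 51 in monocyte-like and 1 and 2 of 51 in macrophage-like cells. The shares of all genes higher or lower in each of these classes stand above with the members' counts. Those with at least 100 UMIs were Dnajc10 in NK-like cells (18.5 and 30.4 CPM), Creld2 in T-like (42.99 and 27.7 CPM), Bag4 in monocyte-like (5.62 and 3.57 CPM) and Fkbp5 in macrophage-like cells (12.3 and 8.09 CPM).

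Inducible UMIs were concentrated in few cells, and these cells held more of some other members. Cells with at least 5 inducible UMIs made up 5.84% to 27.2% of a class and held 54.9% to 94.3% of its inducible UMIs over the 5 classes and both libraries. Against cells of the same class and library with none, they had a higher level of Hspa8 (ratios 1.30 to 2.49), Hsp90aa1 (1.25 to 3.82), Hsp90ab1 (1.17 to 2.12) and Hspe1 (1.52 to 2.57) in 10 of 10 cases. TRiC was above 1 in 10 of 10 cases with a median ratio of 1.14, the cytosolic J proteins in 8 (0.787 to 1.84), the endoplasmic reticulum members in 7 (median 1.05) and the heat shock factors in 5. Dnaja1 was above 1 in 9 cases, Bag3 in 8 and Chordc1 in 7. The 16 immediate early genes had ratios of 0.821 to 1.52, above 1 in 9 of 10 cases. Groups were set by UMIs of the same cells, so these values are a description. The groups also differed in depth, most in WT macrophage-like cells, with median depths of 1923 UMIs in cells with none and 23429 in cells with at least 5. In CD94-KO macrophage-like cells these were 5572 and 14534 UMIs and in WT monocyte-like cells 5401 and 13099, and the part of depth in the ratios was not tested.

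**Figure D4:**
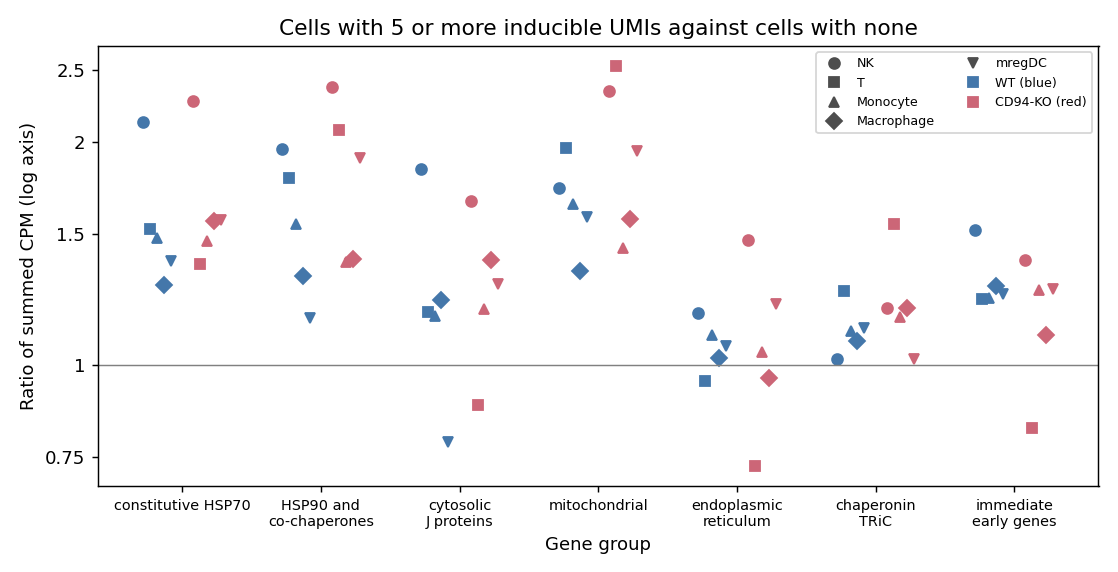
Ratio of summed CPM (log axis) in cells with 5 or more inducible UMIs to cells with none, for 6 groups of members and the immediate early genes, with a symbol for each of 5 classes and a colour for each library. HSP70 and HSP90 groups and mitochondrial members lie above 1 in all 10 cases, and the endoplasmic reticulum group scatters around 1.

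In NK-like cells of the WT library, for example, cells with no inducible UMI (112 cells) held Hspa8 at 1255 CPM and Hsp90aa1 at 518 CPM, while those with at least 5 (40 cells) held 2872 and 1734 CPM. In CD94-KO mregDC-like cells the same values were 1679.9 and 442 CPM in 58 cells with none, and 2704 and 1559 CPM in 44 cells with at least 5. Median depths of the low and high groups were 6094.5 and 6604.5 UMIs in the former and 7801 and 9465 in the latter. Hspa1a and Hspa1b also met in the same cells: of 54 CD94-KO mregDC-like cells with an Hspa1a UMI, 72.2% held an Hspa1b UMI, against 13.9% of the 108 cells without one. In WT NK-like cells these shares were 56.1% of 41 and 9.32% of 279.

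The balance of the HSP70 pair, whose promoter windows are 296 of 300 bases alike, differed between classes. Hspa1a made up 51.3% and 51.4% of the Hspa1a and Hspa1b UMIs in monocyte-like cells (WT and CD94-KO) and 51.5% and 54.1% in cDC-like cells (91 and 125 cells). In NK-like cells it made up 43.8% and 39.3%, and in T-like cells 39.9% and 33.2%, below the monocyte-like share. The intervals do not overlap in either library, but they count UMIs as independent and are too narrow, because few cells held most inducible UMIs. In collagen-gated cells, 139 WT and 63 CD94-KO cells with 10.8 and 14.96 CPM of Ptprc, which encodes CD45, the share was 1.18% (0.612 to 2.06%) and 3.92% (2.60 to 5.65%).

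In these collagen-gated cells Hspa1a had 12 UMIs beside 1003 of Hspa1b in the WT library, and 27 beside 662 in the CD94-KO library. Of the cells with at least 5 UMIs of the pair, 31 of 35 WT and 12 of 17 CD94-KO cells held Hspa1b alone, and 0 held Hspa1a alone. Among mregDC-like cells with as many UMIs, 8 of 9 WT and 35 of 37 CD94-KO cells held both genes. Without the 10 cells with most Hspa1b UMIs, the Hspa1a share of collagen-gated cells was 3.58% in the WT and 17.5% in the CD94-KO library. The type of these cells is given here only by the gate (Col1a1, Col1a2, Col3a1, Col6a1, Col6a2, Dcn and Sparc). Their summed inducible level was 582 and 573 CPM, inside the range of the leukocyte classes in each library.

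**Figure D5:**
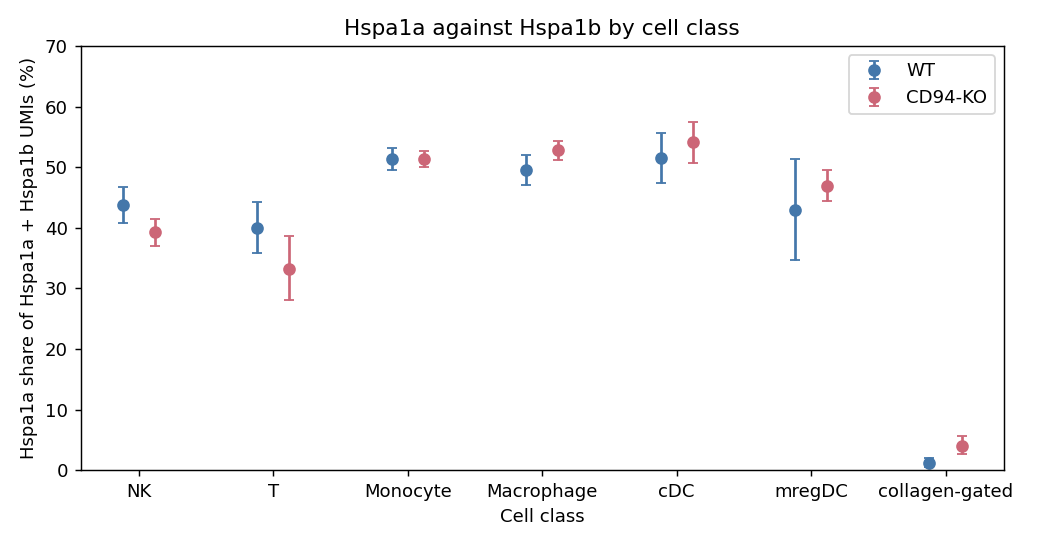
Share of Hspa1a (%) among the UMIs of Hspa1a and Hspa1b in 7 cell classes, WT in blue and CD94-KO in red, with exact 95% binomial intervals. Leukocyte classes lie between 33.2% and 54.1%, and collagen-gated cells at 1.18% and 3.92%.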

How the data were processed

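Droplet-based 3′ single-cell RNA-seq libraries of sorted CD45+ tumour cells, 1 WT and 1 CD94-KO, were analysed. The authors deposited raw counts of UMIs per gene and barcode, and the file headers give Cell Ranger 5.0.0 as their source, while the submitters' processing notes name mm10 and Seurat 4.0 without saying what each was used for. Barcodes were kept above floors of 500 UMIs and 300 genes, if mitochondrial genes made up less than 10% of the UMIs. An automatic doublet call marked 1 WT and 0 CD94-KO cells and was not used. Instead the 4% of cells with the highest Scrublet score (scanpy 1.11.5) were removed, 183 in the WT and 191 in the CD94-KO library. A cell entered a class with at least 3 UMIs from at least 2 of its markers and at least 2 times the UMIs of the next class.

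UMIs were summed per class and library and given as CPM. With 1 library per genotype no test across samples exists and none was run, and edgeR 4.0.16 (R 4.3.3) gave only the TMM factors. Intervals are exact Poisson, conditional binomial or Clopper-Pearson intervals at 95% (scipy 1.17.1). Log2 differences used a pseudocount of 5 CPM, and genes with at least 20 UMIs over both libraries were compared. The scripts were tested on simulated data. The members and all lists were chosen with earlier results of these data known. The 4 inducible members are given in each compared class, other members where they were at least 1.5-fold apart with at least 50 UMIs or by the range of their role group, and Bag3 in T-like and Hsf2 in NK-like cells, which had fewer UMIs, were named after their values were seen. Named beside the members are other chaperone and stress genes at least 1.5-fold apart with at least 100 UMIs. Alternatives changed the scaling, gate, filters, doublet step and weighting of cells.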

Additional observations from a re-analysis of the deposited data

Results flagged for a closer look

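The summed inducible members differed in direction between cell classes under the same comparison of genotypes. Their CD94-KO to WT ratio was 1.33 in NK-like, 1.64 in macrophage-like and 5.74 in mregDC-like cells, and 0.836 in T-like cells. The difference between classes was not tested, since each genotype has 1 library. The T-like direction turned, to 1.18, when no doublets were removed.

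Of the cells outside the comparisons, only those are listed whose CD94-KO interval lay wholly above the WT interval, so classes with lower CD94-KO levels could not appear. The sum of Hspa1a, Hspa1b, Dnajb1 and Hsph1 was 249 CPM in 36 WT and 1087 CPM in 23 CD94-KO cells gated as plasmacytoid dendritic cells, a ratio of 4.36 [3.43 to 5.60]. In the CD94-KO cells of this class the 10 cells with most of these UMIs held 96.7% of them. In cells gated as CD8 T cells it was 160.1 CPM in 50 WT and 377 CPM in 34 CD94-KO cells, a ratio of 2.35 [1.80 to 3.09]. This was the opposite direction to the T-like class taken as a whole. Cells with markers of more than 1 class stood at 349 and 527 CPM, a ratio of 1.51 [1.39 to 1.64]. Cells that passed no gate, at median depths of 751 and 1265.5 UMIs, stood at 275 and 475 CPM, a ratio of 1.73 [1.56 to 1.91]. Among T subsets not listed, cells gated as CD4 T cells held 250 UMIs of Hspa1a and Hspa1b in 594918 (WT) and 51 in 317844 (CD94-KO), a lower CD94-KO level. IL-17 gamma-delta T cells held 48 in 294398 and 39 in 560324, also lower. Regulatory T cells held 38 in 469964 and 20 in 161673, which is higher.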

How the results depend on the processing

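No paired analysis was possible because each genotype has 1 library and the labels carry no replicate numbers. For the same reason no replicate could be left out. The median of the 35 other members stayed within the median of the single-gene counting limits in 30 of 30 settings tried. That range is wide, from -0.54 to 0.32 in mregDC-like cells, so staying within it says little. In NK-like cells the median turned from 0.07 to -0.06 with TMM scaling. In T-like cells it turned from 0.04 to -0.04 when each cell was weighed the same. In mregDC-like cells it turned from 0.08 to -0.12 with at least 100 UMIs required and to -0.02 with the stricter gate. For the summed inducible ratio, 26 of 41 settings left it within its interval. In NK-like cells that ratio was 1.21 with TMM scaling, 1.25 without mitochondrial, ribosomal and rRNA-linked genes, 1.13 with the stricter gate and 1.81 without the 10 cells with most inducible UMIs. In T-like cells it was 0.737 when each cell was weighed the same and 1.18 with no doublet removal. In monocyte-like cells it was 1.11 with the stricter gate, 0.968 when each cell was weighed the same and 1.18 without the 10 cells. In macrophage-like cells it was 1.72 with the stricter gate, 1.47 when each cell was weighed the same, 1.55 with no doublet removal and 2.10 without the 10 cells. In mregDC-like cells it was 3.41 when each cell was weighed the same and 4.90 with no doublet removal. The cause of these moves was not tested. The count of members past 1.5-fold fell to 2 in NK-like, 0 in T-like and 5 in mregDC-like cells with at least 100 UMIs required, where fewer genes were compared. The stricter gate gave 2 in NK-like and 2 in T-like cells, and a minimum of 1 UMI gave 2 in T-like cells. The share of cells with a UMI of Hspa1a or Hspa1b fell, by construction, with the cells thinned to 1000 UMIs, to 9.40% and 14.0% (WT and CD94-KO) in NK-like, 8.70% and 7.33% in T-like, 11.3% and 12.5% in monocyte-like, 9.92% and 14.3% in macrophage-like and 13.9% and 26.7% in mregDC-like cells. With at least 5 UMIs it was 8.44% and 11.6%, 6.08% and 4.74%, 6.26% and 7.88%, 6.24% and 12.5%, and 7.76% and 22.8% in the same order. Ranked by the summed inducible level in the WT library, 3 of 5 classes kept their place under the stricter gate. The shorter motif raised the members with an element from 5 to 14. The Hspa1a share in collagen-gated cells was 3.58% and 17.5% without the 10 cells with most Hspa1b UMIs. Low-count members such as Hspb1, Hsf1 and Bag3 are limited by depth.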

Other observations

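Members also differed in which immune class held them most. Of the 39 members, 24 had their highest level in the same class of 6 in both libraries. The same count was not made over all genes, so it is not known to be particular to the members. Of the 24, 8 were highest in NK-like cells (Dnajb1, Hsph1, Hspa14, Dnajb4, Hspd1, Hspe1, Hspa13 and Cct4). Dnajb4 in NK-like cells stood at 56.1 CPM in the WT and 69.4 CPM in the CD94-KO library, against 5.84 and 7.80 CPM in cDC-like cells, the lowest class. A Dnajb1 UMI was found in 51.6% of WT and 51.2% of CD94-KO NK-like cells, against 31.4% and 40.3% of macrophage-like cells. A further 5 members were highest in macrophage-like cells (St13, Hspb1, Hspa9, Hspa5 and Hsp90b1), and 2, Stip1 and Hsf2, in mregDC-like cells. For Cct4, St13, Hspb1 and Stip1 the lead was smaller than differences between libraries. The lower of the 2 levels in the named class was 0.914, 0.926, 0.174 and 0.934 times the highest level of any other class in either library.

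For 23 of the 39 members, a count not made over all genes, collagen-gated cells stood above all 6 immune classes in both libraries. Hsp90ab1 stood at 6647 and 6122 CPM there, Hspd1 at 753 and 643 CPM and Dnajb1 at 287 and 199.6 CPM. Hspa1a was the opposite, at 1.85 and 9.85 CPM.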
